A study of Mus musculus with 16 samples.

Results

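XAV-treated Tet1 knockout (KO) cells were compared with untreated Tet1 KO cells on day 3 of differentiation towards anterior neural progenitor cells (antNPCs), by the regions of open chromatin in each. The comparison used 4 of the 16 libraries of the study, chosen by their labels: embryonic stem cell (ESC) lines KO1 and KO15 with XAV, and the same 2 lines without it. The study profiled accessible chromatin by ATAC-seq in wild-type (WT), catalytic-mutant (MUT) and KO mouse ESCs during this differentiation, with 2 libraries in each of 8 groups. Among them were WT cells treated with CHIR99021 (CHIR) and collected on day 3, of other lines than the untreated WT cells. Both KO lines carried the Tet1 tm1Koh allele on a B6129S6F1 background and so had no intact Tet1 in either group. The treated cells received 5 µM XAV939 from day 2 and were collected on day 3. The untreated cells were of day 3 without added inhibitor, and a vehicle-only group is not among the labels used here. Both groups were grown from feeder-depleted serum cultures in N2B27 medium with bFGF. Each library is 1 line, so the 2 libraries of a group differ in line, and the text gives KO1 first and KO15 after it.

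In canonical Wnt signalling a ligand stops a destruction complex from degrading β-catenin, which then enters the nucleus and activates genes through TCF and LEF factors. XAV939 inhibits the tankyrases, which would otherwise destabilise AXIN, the scaffold of that complex, and so lowers β-catenin. In the gastrulating mouse embryo Wnt and Nodal signals induce the primitive streak, the source of mesoderm and definitive endoderm, whereas anterior neural tissue forms where both are blocked. ATAC-seq cuts accessible DNA with a transposase, and the deposited peaks are the regions with more cuts than their surroundings.

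The list-gene regions with the largest limma differences were taken, 1 a gene and 5 in each direction, and 6 of these 10 are printed, chosen from the 8 that hold a match to one of 6 short sequences whose shares are compared further on. Of the 4 not printed, Tcl1 holds a forkhead match and Sox3, a gained region, both a TCF/LEF and a SOX match, whereas Foxa2 and Tcf7l1 hold no TCF/LEF, T-box, forkhead, SOX, OCT or paired-like homeobox match. The lost Dkk1 region also holds a SOX match, left in lower case. Each is the middle 300 bp of a region (mm10, forward strand), and each passed limma's threshold in the direction given. In the 3 regions that were lost with XAV, capitals mark matches to the TCF/LEF sequence in Dkk1, to the forkhead sequence in Cer1 and to the T-box sequence in Gsc, on either strand.
Dkk1, chr19:30461837-30462136: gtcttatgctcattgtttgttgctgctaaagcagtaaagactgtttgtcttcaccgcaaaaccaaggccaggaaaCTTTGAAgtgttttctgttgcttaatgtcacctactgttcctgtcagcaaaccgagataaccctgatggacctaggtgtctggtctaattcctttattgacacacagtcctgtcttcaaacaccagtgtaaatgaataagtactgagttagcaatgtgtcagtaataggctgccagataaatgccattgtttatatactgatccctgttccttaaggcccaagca
Cer1, chr4:82885090-82885389: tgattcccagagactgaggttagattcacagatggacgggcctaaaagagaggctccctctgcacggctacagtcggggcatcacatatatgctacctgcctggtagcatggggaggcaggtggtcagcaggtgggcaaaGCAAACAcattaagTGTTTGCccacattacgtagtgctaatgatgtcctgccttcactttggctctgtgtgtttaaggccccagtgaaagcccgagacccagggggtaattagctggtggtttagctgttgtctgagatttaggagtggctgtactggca
Gsc, chr12:104501764-104502063: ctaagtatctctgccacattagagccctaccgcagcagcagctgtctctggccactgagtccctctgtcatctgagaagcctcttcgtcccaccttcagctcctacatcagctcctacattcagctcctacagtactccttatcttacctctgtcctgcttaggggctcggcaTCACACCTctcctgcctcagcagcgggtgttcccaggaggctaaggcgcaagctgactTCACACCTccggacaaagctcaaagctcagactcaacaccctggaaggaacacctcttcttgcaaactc
In the 3 regions that were gained with XAV, capitals mark matches to the SOX sequence in Irx2 and Shisa2 and to the paired-like homeobox sequence in Sox1.
Irx2, chr13:72572954-72573253: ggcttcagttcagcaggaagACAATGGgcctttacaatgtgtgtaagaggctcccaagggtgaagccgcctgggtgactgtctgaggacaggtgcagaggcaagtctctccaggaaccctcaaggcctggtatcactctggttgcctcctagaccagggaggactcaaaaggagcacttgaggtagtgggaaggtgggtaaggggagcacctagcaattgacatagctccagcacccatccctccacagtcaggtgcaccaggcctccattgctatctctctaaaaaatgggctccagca
Shisa2, chr14:59710922-59711221: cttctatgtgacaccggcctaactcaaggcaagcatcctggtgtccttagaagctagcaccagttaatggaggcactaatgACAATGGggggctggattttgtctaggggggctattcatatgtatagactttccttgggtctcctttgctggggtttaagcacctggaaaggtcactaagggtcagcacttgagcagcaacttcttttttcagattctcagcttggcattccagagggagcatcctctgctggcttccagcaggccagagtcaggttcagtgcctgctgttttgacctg
Sox1, chr8:12451993-12452292: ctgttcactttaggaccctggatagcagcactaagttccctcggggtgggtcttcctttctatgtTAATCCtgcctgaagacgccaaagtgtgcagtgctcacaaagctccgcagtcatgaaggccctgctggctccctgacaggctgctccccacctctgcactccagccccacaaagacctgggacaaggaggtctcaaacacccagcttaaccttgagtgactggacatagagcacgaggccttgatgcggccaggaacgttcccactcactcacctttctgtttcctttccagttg
The Cer1 region lies at the promoter, and the other 5 lie in introns or between genes.

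For each library the 50000 deposited intervals with the smallest p-values were kept. The −log10 p of the last one kept was 13.36 and 13.26 in the XAV libraries, against 12.79 and 6.84 in the untreated libraries, so the untreated KO15 list reached the weakest signals of the 4. Summits of kept intervals were merged over the 16 libraries into 82164 consensus regions, of which the median spanned 397 bp. A region is called open in a library where a kept interval overlaps it. Read depth is unknown because the files hold peaks and no counts. One Tet1 region (chr10:62884128-62884462) was open in 0 of the 6 KO libraries, XAV included, and in all 10 other libraries, which fits the labels. Promoters of all 7 epiblast markers, among them Pou5f1 and Nanog, were open in every one of the 16 libraries.

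The open state of 7281 regions differed with XAV in both lines alike. Of these, 3944 regions (4.80% of 82164) were open in both XAV libraries and in neither untreated library, and are called gained. The reverse held for 3337 regions (4.06%), called lost. The 2 pairings that mix the groups show how many regions differ between any 2 pairs of these libraries. With both KO1 libraries set against both KO15 libraries the counts were 924 and 848, and with XAV KO1 and untreated KO15 set against XAV KO15 and untreated KO1 they were 819 and 888. The total of 7281 regions by treatment was 4.11 and 4.27 times the totals of the mixed pairings, 1772 and 1707. No p-value goes with these counts, since an exact two-sided permutation test of 2 against 2 libraries cannot go below 1/3.

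**Figure D1:**
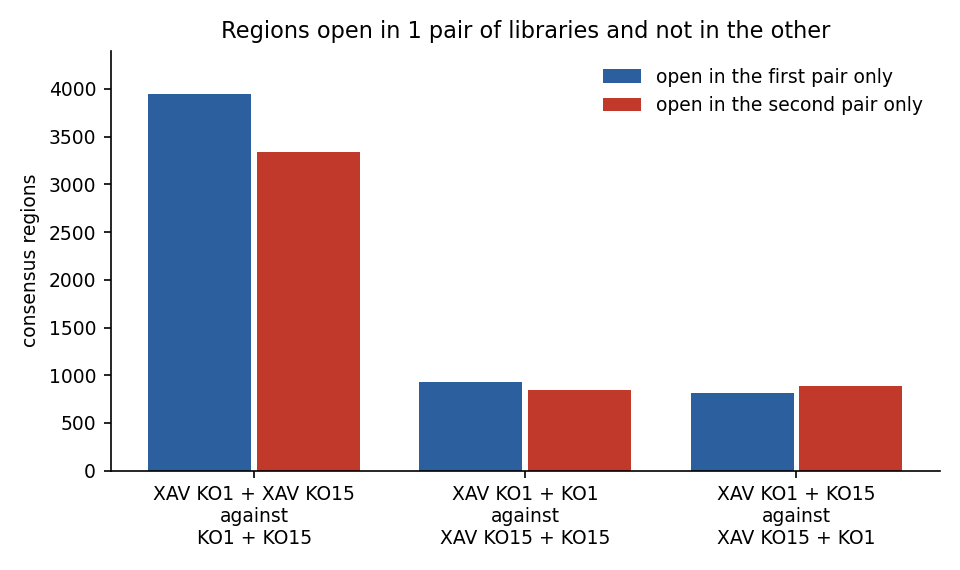
Number of consensus regions (vertical axis) open in both libraries of one pair and in neither of the other, for the pairing by XAV treatment (left) and the 2 pairings that mix the groups. The bars for treatment stand at 3944 and 3337, and those of the mixed pairings between 819 and 924.

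Within the KO1 line 9588 regions were open with XAV alone and 8728 untreated alone, and within KO15 the counts were 10343 and 7839. Of the regions open only with XAV in one line, 41.1% (KO1) and 38.1% (KO15) were gained in both. The share of regions open in either of 2 libraries that were open in both was 0.806 for the XAV pair and 0.756 for the untreated pair. Between a treated and an untreated library it was 0.695 to 0.704, below both pairs. A further 37877 regions (46.1%) were open in all 4 libraries.

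Most gained and lost regions differed in peak height rather than in whether any peak was listed. Of the gained regions, 3006 (76.2%) still had a deposited peak under the limit in both untreated libraries, and 179 (4.5%) had none in either. Of the lost regions, 2707 (81.1%) kept a weaker peak in both XAV libraries, and 345 (10.3%) had none. With a region counted as closed only where no listed peak overlapped it, the mixed pairings gave 3 to 25 regions. With every peak of −log10 q of at least 2 counted as open, 13401 regions were gained and 3230 lost, but 1 mixed pairing then reached 6871, above the lost count.

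Peak heights gave the size of the differences. The fold enrichment over background of the highest deposited peak at each region was compared with limma over all 16 libraries on the log2 scale, a library without a peak taking the lowest value of its own list. Where both libraries of a group lack a peak, these lowest values hardly differ. The SE and adjusted p there rest on little measured spread and can be too small. With Benjamini-Hochberg adjustment, 2303 regions (2.80%) were higher with XAV and 2027 (2.47%) were lower. The median difference was 0.76 over the gained regions, of which 1027 passed limma's threshold, and −0.80 over the lost regions, of which 919 did. Over the 37877 regions open in all 4 libraries the median was −0.06, with 167 higher and 43 lower. These tests rest on the libraries that gave the gained and lost calls and are no separate evidence of them. In the fit without normalization 2364 regions were higher and 1137 lower, so the higher ones made up 67.5% of calls, against 53.2% as reported.

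The changes with XAV lay mostly away from promoters. Of the gained regions 83.0% and of the lost regions 84.2% were more than 3 kb from a start site, against 65.1% of all regions and 46.8% of those open in all 4 libraries. CpG dinucleotides averaged 4.22 per 300 bp in gained and 4.36 in lost regions, and 9.38 over all regions. Median GC content was 50.3% and 50.7%, against 53.3%. Gained regions made up 3.89% to 5.44% and lost regions 2.83% to 4.96% of the regions of each chromosome other than Y, so neither set was concentrated on one of them.

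Of 14 gene lists, set with earlier results of these data known, the primitive streak genes had the largest share of lost regions. Each region was assigned to the nearest protein-coding start site within 100 kb. Among all 17455 genes with a region, 2613 (15.0%) had a gained region and 2271 (13.0%) a lost one. Of 20 primitive streak genes, 13 had a lost region and 4 a gained one. By region, 27 of their 169 regions (15.98%) were lost and 4 (2.37%) gained, against 3.74% lost and 4.37% gained over the regions of all genes. limma called 18 of the 169 lower and 3 higher, against 1594 lower and 1749 higher of the 72231 regions of all genes. The median difference of the 169 was −0.17, against −0.04 for all genes. The Primitive Streak list of the mouse gastrulation atlas, from the study's supplement, had 20 of 239 regions lost (8.37%) and 11 gained (4.6%).

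Gsc, a homeobox repressor of the anterior streak, had 3 lost regions and 1 gained region among 8. In the region 28.6 kb upstream, printed above, no peak was found in either XAV library, against a fold enrichment of 7.92 and 6.88 in the untreated libraries (log2 difference −2.51 ± 0.13 (SE), limma adjusted p = 2.4e-06). The region 6.2 kb downstream of the start had no peak with XAV and 5.41 and 6.67 untreated (−2.20, adjusted p = 0.0044). The region 13.0 kb upstream held 3.02 and 2.75 with XAV, against 7.96 and 6.65 untreated (−1.76, adjusted p = 0.0040). At all 3 the XAV and untreated libraries did not overlap, as was so at each of the 2303 higher and 2027 lower regions called by limma. With 1 library left out the difference was −2.59 to −2.42 at 28.6 kb upstream. It was −2.55 to −1.85 at 6.2 kb downstream and −1.86 to −1.66 at 13.0 kb upstream. Where neither XAV library had a peak, leaving out either of them left the difference unchanged, so those fits test little. The gained region, 34.8 kb upstream, held 8.12 and 8.34 with XAV and 4.83 and 3.24 untreated, and did not pass (0.82, adjusted p = 0.22).

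Foxa2, a forkhead factor of the anterior streak, node and endoderm that can bind closed chromatin, had 6 lost regions, the most of any list gene, and none gained among 19. The region 38.1 kb upstream had no peak with XAV and held 6.51 and 7.37 untreated (−2.40 ± 0.33, adjusted p = 0.0014). That region was open in no other library of the study. The region 13.5 kb upstream had no peak with XAV either, against 6.65 and 5.04 untreated (−2.18 ± 0.18, adjusted p = 4.5e-05), and both calls stood with any 1 library left out. Another, 50.5 kb upstream, also passed (−1.81, adjusted p = 0.0083), but not without either of the XAV libraries (0.056 and 0.055). The other 3 lost regions did not pass, among them one 53.1 kb upstream with 3.95 and 5.81 with XAV against 10.83 and 10.38 untreated (−1.32, adjusted p = 0.057).

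Regions of Mesp1, Noto, T, Eomes and Fgf8 passed limma's threshold as well. At Mesp1, a bHLH factor of nascent mesoderm, the region 4.2 kb downstream held 2.42 in XAV KO1 and no peak in XAV KO15, against 4.86 and 4.24 untreated (−1.65 ± 0.14, adjusted p = 5.4e-05). At Noto, a homeobox gene of the node, the lost region had no peak with XAV and held 6.94 and 4.95 untreated (−2.20, adjusted p = 0.0028). At T (Brachyury), the T-box factor of the streak, the 2 lost regions did not pass limma's threshold, and a region 12.6 kb upstream did (−0.99, adjusted p = 0.011). Eomes, the other streak T-box factor, had a region 93.3 kb upstream that was lower (−1.67, adjusted p = 0.0079) and one 71.9 kb upstream that was higher (0.63, adjusted p = 0.033). Fgf8, a streak FGF ligand, had 3 lower regions, of which 1 (−1.77) rests on a peak that ends just beside it (−0.15, adjusted p = 0.82, with peaks within 100 bp counted). The other 2, 19.6 kb and 16.7 kb downstream (−1.68, adjusted p = 0.014, and −1.24, adjusted p = 0.021), failed in 4 and in 3 of the 4 fits that left out a library. Fgf8 also had 1 higher region in an intron, where XAV libraries held 7.17 and 5.50 and untreated libraries 2.41 and 2.80 (1.34, adjusted p = 0.030). The calls at T and Eomes and that higher region at Fgf8 each failed with at least 1 library left out. With the cell line as a block the adjusted p was 0.058 at T, 0.11 at the higher Eomes region and 0.11 at the higher Fgf8 region. The lost regions of Evx1 and Lhx1 and of the Wnt3 promoter, where XAV KO1 held 2.21 and XAV KO15 no peak against 4.01 and 2.90, did not pass either. With peaks within 100 bp counted, the Wnt3 promoter held 4.32 and 3.65 with XAV against 4.01 and 4.01 untreated (−0.25, adjusted p = 0.78).

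**Figure D2:**
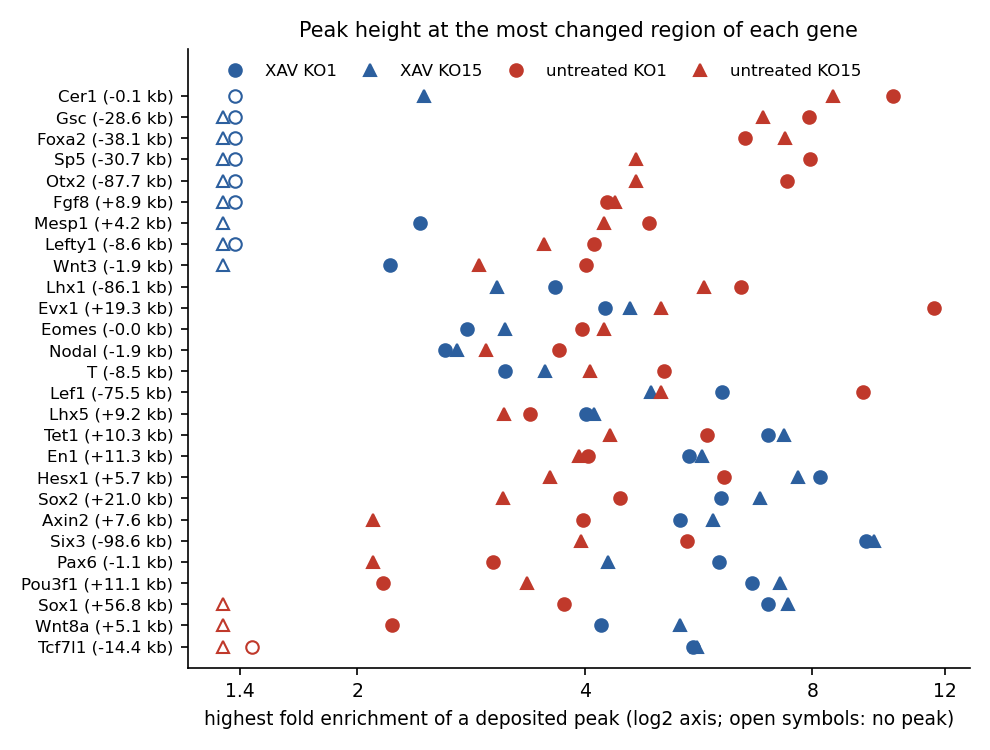
Highest fold enrichment of a deposited peak (horizontal log2 axis) in the XAV KO1 and KO15 libraries (blue) and the untreated KO1 and KO15 libraries (red). Shown is the gained or lost region with the largest difference of each of 27 genes. They are Tet1 and genes named for their roles in the streak, Wnt and Nodal signalling or neuroectoderm. The gained Tet1 region, 10.3 kb downstream, did not pass limma's threshold (0.27, adjusted p = 0.83). Distances are from the nearest annotated start to the region's middle, and open symbols stand at the library's lowest value where it had no peak. At Cer1, Gsc, Foxa2, Sp5 and Otx2 at least 1 XAV library had no peak, and at Tcf7l1 neither untreated library had one.

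Definitive endoderm genes came next, with 9 of 18 genes and 17 of 142 regions (11.97%) lost and 7 regions (4.93%) gained. The lists share genes, so their counts are not separate results. Foxa2, with 6 lost regions, and Eomes, with 2, are on both the endoderm and the streak list. The promoter region of Cer1, a secreted inhibitor of Nodal, BMP and Wnt made by anterior endoderm, had no peak in XAV KO1 and 2.45 in XAV KO15, against 10.23 and 8.53 untreated (−2.63 ± 0.52, adjusted p = 0.014). This call was lost with any 1 library left out (adjusted p 0.05 to 0.10). At Otx2, a homeobox gene of epiblast, forebrain and anterior endoderm, the region 87.7 kb upstream had no peak with XAV and held 7.40 and 4.68 untreated (−2.21 ± 0.30, adjusted p = 0.0015). With 1 library left out this difference was −2.32 to −2.10. The other lost region of Otx2 also passed (−1.23, adjusted p = 0.035). A region 0.8 kb upstream of an Otx2 start was higher (0.86, adjusted p = 0.042), though not with the line as a block (0.11). The gained region of Otx2 did not pass (0.48, adjusted p = 0.35). At Cpm, a carboxypeptidase gene used as an endoderm marker, a lost region had no peak with XAV and 8.59 and 4.6 untreated (−2.30, adjusted p = 0.00038), but with peaks within 100 bp counted the difference was −1.27 (adjusted p = 0.16). At Shisa2, also on this list, whose frog relative blocks Wnt and FGF receptors in the head, the intronic region printed above held 11.47 and 8.61 with XAV, against no peak and 3.24 untreated (1.95 ± 0.43, adjusted p = 0.025).

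Nodal signalling genes had 14 of 133 regions (10.53%) lost and 6 (4.51%) gained, in 8 and 6 of 18 genes. Gsc, with 3 lost regions, and Nodal, with 2, are also on the streak list, and Cer1, with 1, on the endoderm list. The Nodal promoter itself, 1.9 kb upstream, held 2.61 and 2.71 with XAV, against 3.70 and 2.96 untreated (−0.82, adjusted p = 0.038), and passed neither with a library left out (0.064 to 0.18) nor with the line as a block (0.088). Nodal also had a gained region 5.5 kb downstream, which did not pass (0.76, adjusted p = 0.074). That region held 5.84 and 5.55 with XAV, against 3.41 and 2.56 untreated. Lefty1, a feedback antagonist of Nodal, lost a region 8.6 kb upstream, with no peak with XAV against 4.11 and 3.53 (−1.55 ± 0.11, adjusted p = 1.7e-05). The Lefty1 region was open in no other library of the study. None of those libraries had a peak there, so its SE rests mostly on lowest values filled in for missing peaks. Smad3, which transduces the Nodal signal, had 3 lower regions, 1 of them at its promoter with 2.49 and 2.29 with XAV against 3.84 and 3.21 (−1.03, adjusted p = 0.049). The promoter call of Smad3 did not stand in any fit with a library left out (0.085 to 0.22) or with the line as a block (0.081). The other 2 lower regions of Smad3, 69.0 kb upstream (−1.42, adjusted p = 0.041) and 4.3 kb upstream (−1.15, adjusted p = 0.031), failed in 4 and in 3 of those 4 fits, and the second had an adjusted p of 0.068 with the line as a block.

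Wnt genes moved both ways. Of 275 regions of 30 genes, 18 (6.55%) were gained and 17 (6.18%) lost. limma called 12 of the 275 higher and 17 lower, against 1749 and 1594 of the 72231 regions of all genes. Sp5, a zinc finger factor and direct Wnt target, lost 2 adjacent regions about 31.0 kb upstream that lie under the same deposited peaks, with no peak with XAV against 7.95 and 4.68 (−2.26 ± 0.30, adjusted p = 0.0011 for the first). At Dkk1, a secreted Wnt antagonist, the distal region printed above had no peak with XAV and held 8.74 and 8.63 untreated (−2.71 ± 0.12, adjusted p = 1.4e-06). Axin2, which codes for a destruction complex scaffold and is a common readout of the pathway, had a region 22.5 kb upstream that was lower, with no peak with XAV against 4.97 and 3.11 (−1.60, adjusted p = 0.0022). A region of Axin2 7.6 kb downstream was gained, with 5.35 and 5.92 with XAV against 3.98 and 2.10 untreated, and did not pass (0.63, adjusted p = 0.25).

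The TCF genes differed among themselves. Tcf7l1, a TCF factor that acts mainly as a repressor, had 4 gained regions and 1 lost one among 20. At the region 14.4 kb upstream of a start, in an intron, XAV libraries held 5.56 and 5.63 and neither untreated library had a peak (1.83 ± 0.30, adjusted p = 0.0043), with any library left out. That region was open in no other library. A second gained region of Tcf7l1, 18.2 kb upstream, held 5.22 and 5.56 with XAV, against 2.67 and no peak untreated (1.69, adjusted p = 0.011), and failed in 3 of the 4 fits that left out a library (0.056 to 0.074). Tcf7l2 had 2 gained and 2 lost regions, and 3 of its regions were lower by limma and 1 higher. The higher region (0.84, adjusted p = 0.047) and 1 of the lower ones (−0.74, adjusted p = 0.036) missed the threshold with the line as a block (0.14 and 0.11). Lef1 had 2 gained and 1 lost, of which none passed, and another region that was lower (−0.75, adjusted p = 0.037) but not with any library left out (0.067 to 0.18), and Tcf7 had neither. Wnt8a, a ligand of the streak, had 1 lost region that did not pass and 2 gained regions that did (0.85, adjusted p = 0.015, and 1.56, adjusted p = 0.011), the first with an adjusted p of 0.053 with the line as a block. Lgr5, an R-spondin receptor, lost 2 regions, 1 of them past the threshold (−1.13, adjusted p = 0.039), though not with the line as a block (0.13).

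Neuroectoderm genes had the reverse pattern. Of 30 genes, 15 had a gained region and 4 a lost one, and 19 of their 243 regions (7.82%) were gained and 5 (2.06%) lost. limma called 7 of the 243 higher and 8 lower, against 1749 and 1594 of the 72231 regions of all genes. Of the lower ones 2 were at Otx2 and 3 at Sfrp1. The median difference of −0.06 was close to that of all genes. At Sox1, an early neural plate factor, the region 56.8 kb downstream held 6.99 and 7.42 with XAV, against 3.76 and no peak untreated (1.55 ± 0.37, adjusted p = 0.036). At Irx2, a homeobox gene of the neural plate, the region 55.7 kb upstream held 11.18 and 10.70, against 3.54 and 3.24 (1.50 ± 0.38, adjusted p = 0.045). Another Irx2 region, 82.5 kb downstream, was lower with XAV (−1.51, adjusted p = 0.042, and 0.053 with the line as a block). At Sox3, related to Sox1, the gained region held 6.99 and 7.34, against 2.90 and no peak (1.94 ± 0.25, adjusted p = 0.00090).

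Further gained regions lay at genes of the forebrain and eye field. A region 1.1 kb upstream of an annotated start of Pax6 held 6.03 and 4.29 with XAV, against 3.02 and 2.10 untreated (0.86, adjusted p = 0.025). The gained region 0.3 kb upstream of another Pax6 start did not pass (0.28, adjusted p = 0.58). A region 98.6 kb upstream of Six3 held 9.42 and 9.66, against 5.47 and 3.96 (0.80, adjusted p = 0.032). Pou3f1, a POU factor of epiblast and early neural cells, held 6.66 and 7.25, against 2.16 and 3.35, and missed the threshold (1.35, adjusted p = 0.081). With peaks within 100 bp counted, untreated KO1 held 4.86 at Pou3f1 and the difference was 0.53 (adjusted p = 0.21). The gained regions of Sox2, Lhx5, Hesx1 and En1 missed it too. The calls at Sox1, Irx2, Pax6 and Six3 each failed in at least 2 of the 4 fits that left out a library. With the line as a block, Sox1 (adjusted p = 0.091) and Pax6 (0.11) missed the threshold.

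Lists of other cell types showed smaller shares. Posterior and neuromesodermal genes had 9 of 94 regions (9.57%) lost and 2 (2.13%) gained, and mesoderm genes 12 of 182 (6.59%) lost and 4 (2.20%) gained. Markers of cells that a culture of this kind could also hold gave 1 gained and 3 lost of 52 regions for extraembryonic endoderm, 2 and 3 of 73 for trophoblast, and 4 and 3 of 70 for fibroblasts. Fibroblast promoters, which feeder cells would add, were open for the same 8 of 14 genes in all 4 libraries. Streak marker promoters were open for 6 of 7 genes in both XAV libraries, against 7 in both untreated libraries, and the difference was Evx1, a homeobox gene of the posterior streak. Neuroectoderm marker promoters showed no gain with XAV. They were open for 5 and 4 of 5 genes in the XAV libraries, against 4 and 5 in the untreated libraries. Because these are bulk samples, fewer cells of a type and less open chromatin per cell cannot be told apart. Housekeeping genes had 1 gained and 3 lost of 58 regions. Over the regions of all genes limma called 1594 of 72231 lower, and of the 58 housekeeping regions it called 2. These were lost regions of Ywhaz (−1.85, adjusted p = 0.023), not called with the line as a block (0.10), and of the Ppia promoter, with 2.62 and 2.76 with XAV against 6.51 and 5.88 untreated (−1.68, adjusted p = 0.037).

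**Figure D3:**
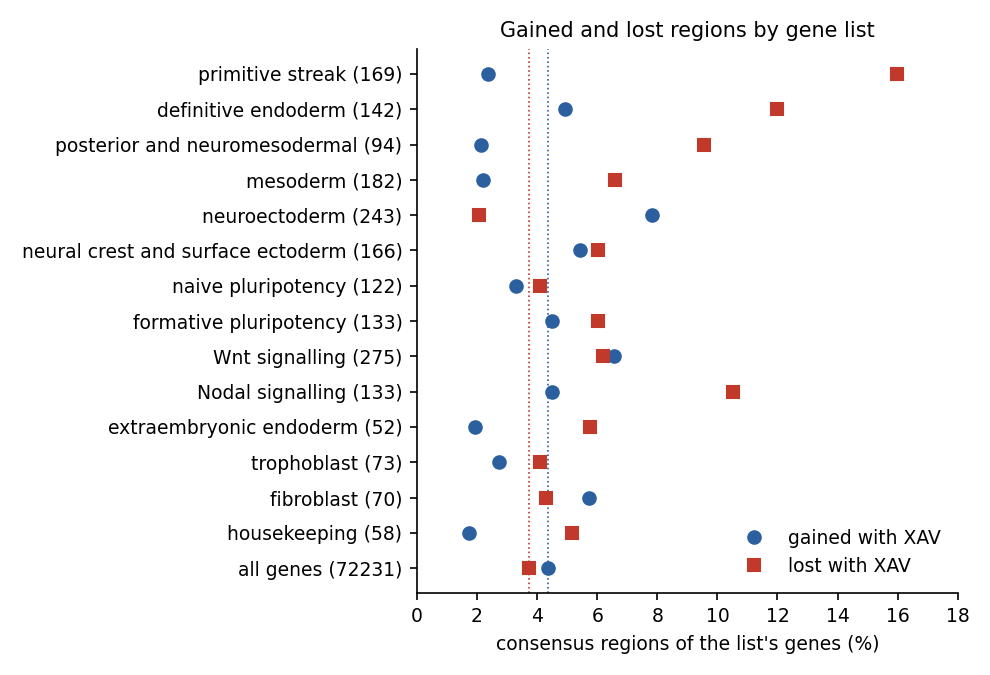
Share of the consensus regions of each gene list (horizontal axis, in percent; the number of regions is in brackets) that were gained with XAV (blue) or lost with XAV (red), with dotted lines at the shares over all genes, 4.37% and 3.74%. Primitive streak genes stand at 15.98% lost and neuroectoderm genes at 7.82% gained.

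The libraries that took no part in the call showed when these regions are open elsewhere. Lost regions were mostly closed the day before: 76.7% were open in neither KO day 2 library and 8.1% in both, against 28.8% and 56.1% of all regions. Gained regions were open in both KO day 2 libraries in 50.6% of cases and in neither in 23.3%, each below the share of all regions. Of the gained regions 36.2% were open in both WT day 3 libraries and 30.0% in neither, and of the lost regions 19.6% in both and 59.4% in neither, against 55.2% and 28.4% of all regions. In the 10 libraries of day 2 and of WT and MUT day 3, a gained region was open in a median of 6 and a lost region in a median of 1.

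WT cells of lines WT7 and WT34 were also treated from day 2 with 3 µM CHIR99021, a GSK3 inhibitor that activates the Wnt pathway. The untreated WT libraries are of lines WT70 and WT72, so line and CHIR cannot be told apart in WT cells. Gained regions were closed in both CHIR libraries in 76.4% of cases and open in both in 10.9%, against 32.2% and 56.0% of all regions. Lost regions were open in both CHIR libraries in 41.6% and in neither in 41.3%. Of the lost regions 587 (17.6%) were open in both CHIR libraries and in 0 of the 10 others, and 540 (16.2%) in no other library at all. Over all consensus regions these 2 patterns made up 9.0% and 1.2%, although the second includes the lost regions themselves. Of the 27 lost regions of streak genes, 15 were open in both CHIR libraries and 11 in neither, and the 3 open in no other library all belonged to Foxa2.

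**Figure D4:**
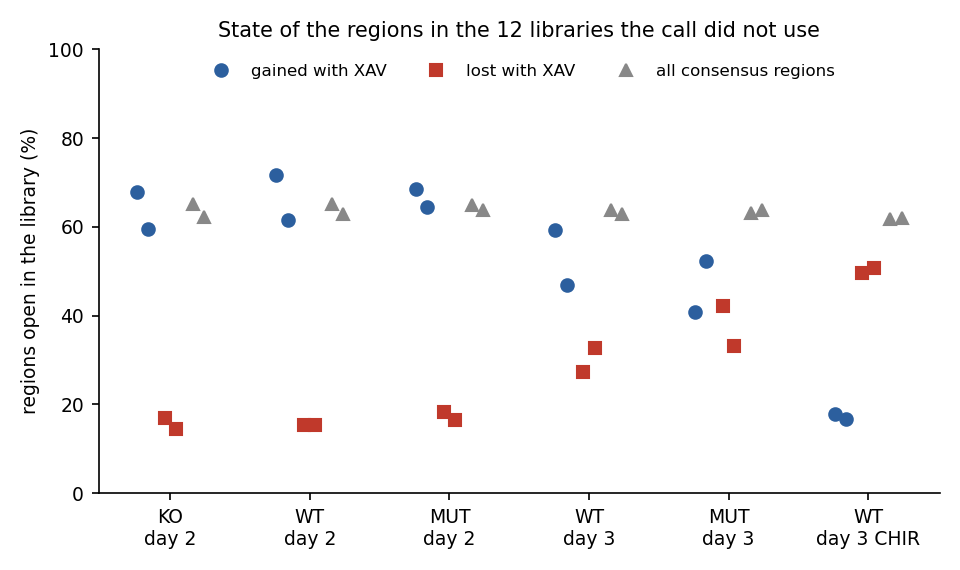
Share of gained (blue), lost (red) and all (grey) consensus regions that were open (vertical axis, in percent) in each of the 12 libraries outside the comparison, 2 libraries a group. Lost regions were open in 14.5% to 18.2% of cases on day 2 and in 49.5% and 50.8% with CHIR, and gained regions in 59.4% to 71.7% on day 2 and in 17.8% and 16.7% with CHIR.

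Lost regions held sequences bound by factors of the streak more often than gained regions did. The sequences were searched on both strands in the middle 300 bp of each region, and the shares are descriptions without a test. The TCF/LEF sequence (CTTTGAT or CTTTGAA) was found in 8.9% of gained and 19.2% of lost regions, against 10.7% of all regions. The T-box sequence (TCACACCT), bound by T and Eomes, was in 1.3% of gained and 5.3% of lost regions, against 1.9%. The forkhead sequence (TGTTTAC or TGTTTGC) was in 8.8% and 19.6%, against 9.0%. The FOXH1 sequence (TGTGGATT or TGTGTATT), bound by a partner of SMAD2 in Nodal signalling, was in 2.0% of gained and 4.0% of lost regions, against 1.8%. The SMAD sequence itself (GTCTAGAC or GTCTGGAC) hardly differed, with 1.3% of gained and 1.4% of lost regions, against 1.2%.

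Sequences outside the Wnt and Nodal pathways differed as well. The AP-1 sequence (TGANTCA) was in 9.3% of gained and 19.9% of lost regions, against 11.4% of all. The sequence AGATAA, bound by GATA factors, was in 10.7% and 14.8%, against 9.9%, and that of TEAD factors (ACATTCC) in 5.1% and 8.9%, against 5.5%. The SOX sequence (ACAAAGG or ACAATGG) had the reverse order, with 19.1% of gained and 13.2% of lost regions, against 11.8%. OCT (ATGCAAAT), bound by POU factors, was in 4.4% and 3.1%, against 2.5%, and the paired-like homeobox sequence (GGATTA), bound by OTX2 and GSC, in 13.5% and 10.1%, against 8.4%. GGATTA overlaps the FOXH1 sequence where TGTGGATT is followed by A. Gained and lost regions lie further from promoters than all regions do. Among distal regions only, TCF/LEF was in 9.2% of gained, 19.9% of lost and 13.2% of all regions, and SOX in 20.0%, 13.6% and 13.9%.

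**Figure D5:**
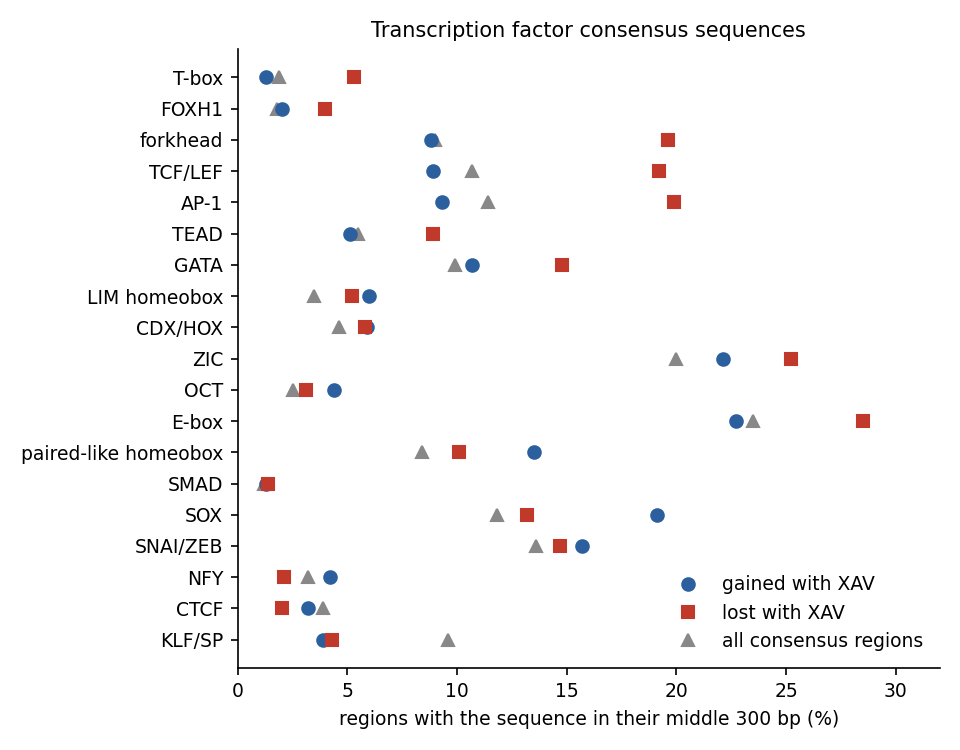
Share of gained (blue), lost (red) and all (grey) consensus regions that held each consensus sequence in their middle 300 bp (horizontal axis, in percent), ordered by the ratio of lost to all. T-box, FOXH1, forkhead, TCF/LEF and AP-1 stand at the top with lost above gained, and SOX, OCT and paired-like homeobox show gained above lost.

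Seen from the sequence, 7.26% of the 8812 regions with a TCF/LEF match were lost and 3.98% gained, against 3.68% and 4.90% of regions without. Of the 1562 regions with a T-box match 11.4% were lost and 3.27% gained. The share of lost regions with a TCF/LEF match was 25.0% among those open in both CHIR libraries and 14.7% among those open in neither. The forkhead share was 31.9% in the 540 lost regions open in no other library. It was 25.6% in the 587 open in both CHIR libraries and in 0 of the other 10. Regions with at least 2 TCF/LEF matches made up 0.51% of gained and 2.13% of lost regions, against 0.95% of all. Among the gained regions open in the 10 other libraries and in neither CHIR library (341 regions), 29.6% held SOX. Shares over all regions of the same CHIR state were not computed. Whether the shares by CHIR state are particular to lost or gained regions was therefore not tested.

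Outside the gene lists, several genes carried many changed regions. Elmo1, which takes part in Rac activation, and Tanc1, a postsynaptic scaffold gene, had 6 gained regions each among 33 and 25, and Wwc1, a Hippo pathway gene, and Tenm2, a teneurin, had 5 among 19 and 26. Elmo1 also had 3 lost regions and Wwc1 had 1. Slc17a6, Gm45521, Ankrd44, Ass1, Map1b and Tmem154 had 4. The 10 genes with most lost regions had 4 each, namely Il17rd, Pmepa1, Ctnnd2, Col18a1, Pdzd2, Tanc1, Lpp, Rgs3, Tenm4 and Pde4d. These genes had 16 (Il17rd) to 50 (Pde4d) regions, so a gene with many regions had more chances to be counted. Of the regions of all genes, 4.37% were gained and 3.74% lost. Col18a1 and Pdzd2 also had 2 gained regions each. Il17rd, a feedback inhibitor of FGF signalling, had no peak with XAV at a region 5.8 kb upstream, against 8.03 and 5.92 untreated (−2.42 ± 0.10, adjusted p = 1.4e-06). Pmepa1, a feedback inhibitor of TGF-β signalling, held 3.16 and 2.89 with XAV at a region 58.7 kb upstream, against 6.13 and 7.24 (−1.51, adjusted p = 0.0021). Tanc1 had 6 gained and 4 lost regions, and 1 lost region in an intron had no peak with XAV against 11.64 and 4.96 (−2.58, adjusted p = 0.00034).

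The largest single differences were partly set by where a deposited peak ended. Of the 10 largest rises, those at Prex2, Stau1, Rsl1d1 and Btbd3 had no overlapping peak in either untreated library, but a peak lay within 3 to 37 bp of the region in both. With peaks within 100 bp counted, Rsl1d1 turned from 3.03 to −0.18 and Prex2 from 3.21 to 0.22. Rises with no such neighbour include Gpr39, a G protein-coupled receptor gene, with 11.93 and 11.50 with XAV, against 2.25 and no peak (2.88 ± 0.13, adjusted p = 1.9e-06), and Fev, an ETS factor gene, with 11.94 and 10.95, against 2.25 and no peak (2.84, adjusted p = 3.2e-05). Among the largest falls, Ctnnd2, which codes for δ-catenin, had a region with no peak with XAV and 16.49 and 8.27 untreated (−3.15 ± 0.20, adjusted p = 7.2e-06), and Crh, which codes for corticotropin-releasing hormone, one with 11.72 and 8.95 untreated (−2.95, adjusted p = 0.00028). Within 500 bp of an interval kept in both libraries of the other group lay 5.8% of gained and 5.4% of lost regions. Of the 123 named regions past limma's threshold, 110 stayed past it with peaks within 100 bp counted, and 49 stayed past it with any 1 of the 4 libraries left out.

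The deposited lists of regions that differ between untreated KO and WT cells on day 3 were chosen on the untreated libraries used here, so only their state with XAV is new. Of the 1077 regions listed as opening in KO, 8.4% were open in XAV KO1 and 8.5% in XAV KO15, against 85.1% and 63.0% in the untreated libraries, and 8.4% and 5.4% on day 2 in KO. Of the 920 listed as closing in KO, 69.8% and 68.7% were open with XAV, against 29.3% and 32.1% untreated, and 58.9% and 57.8% on day 2. In the WT day 3 libraries, on which the lists were also chosen, 89.1% and 83.5% of the closing regions were open. Of the opening regions, 5.0% and 5.8% were open there.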

How the data were processed

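ATAC-seq peak lists of 16 libraries were used. Per the study's methods, the authors ran the ENCODE ATAC-seq pipeline, which trims, aligns, removes duplicates and calls peaks per library, and used DiffBind 3.0.15 for differential regions (mm10). Each deposited narrowPeak list holds the peak's fold enrichment over background (a ratio) and its −log10 p and −log10 q as written by the authors' peak caller. No read counts were used, so depth is unknown, and the number of replicates limits precision. The 2 deposited bed files hold coordinates of differential regions and a region number.

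Per library the 50000 unique intervals of highest −log10 p were kept. Windows of 150 bp either side of every summit were merged over the libraries and retained where at least 2 libraries held them. Open means overlap by at least 1 bp. Gained and lost regions were called by overlap, without a test. limma 3.58.1 (R 4.3.3) was fitted to the log2 of the highest fold enrichment per region, with the lowest value of the library where no peak overlapped, quantile normalised, with 8 group means, and Benjamini-Hochberg adjustment over all 82164 regions at 0.05. The script was tested on simulated data. Genes were taken from GENCODE M21 (GRCm38, the mm10 coordinates), and sequences from RefSeq's GRCm38 genome. Python 3.11.15 was used for overlaps.

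The 2 lines occur in both groups and so pair the libraries. The deviations of same-line libraries from their group means correlated at 0.0191 between XAV and untreated day 3, 0.033 between XAV and day 2, and 0.183 between untreated day 3 and day 2. The main model has no line term, as the study's methods name none.

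Named are list genes with at least 2 gained or 2 lost regions. Outside the lists, the 10 genes with most gained and the 10 with most lost are named. So are the 10 largest rises and 10 largest falls past limma's threshold that moved the same way in both lines. Also named are Tet1 and a set of genes of the streak, Wnt, Nodal and neuroectoderm. The printed sequences are 6 of the 10 list-gene regions with the largest limma differences, 5 in each direction, chosen after seeing which held a match to a searched sequence, with chromosome 18 left out. Noto, Sfrp1 and Ppia were named after their values were seen. Dkk1, Shisa2, Sox3 and Tcl1 are named only because they are among those 10 regions. For these genes, fits with a library left out, the line as a block or peaks within 100 bp are not given. The members and lists were chosen with earlier results of these data known. The labels name 1 line per library and nothing more of the cultures, so p-values measure the spread between these libraries. Where libraries lack a peak, that spread is partly one of filled-in lowest values, which understates it. Alternatives changed the number of intervals, the limit, the overlap, the normalization, the value and the libraries.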

Additional observations from a re-analysis of the deposited data

How the results depend on the processing

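Gained regions numbered 2441 and lost regions 1873 with 30000 intervals per library, and 6560 and 5079 with 80000. They numbered 13401 (gained) with every peak of −log10 q of at least 2, 179 and 345 where closed meant no deposited peak, 9588 and 8728 within line KO1, and 10343 and 7839 within line KO15. Leaving out 1 library, which drops one of the conditions of the call, gave 6163 to 6969 gained and 4645 to 6411 lost. limma called 983 higher and 1047 lower with only the 4 libraries compared, 1137 lower without normalization, 3324 lower on −log10 p, and 717 lower among regions open in at least 4 libraries, where 70.2% of calls were higher, since regions open in few libraries were not tested. With 1 library left out it called 965 to 3750 higher (3750 without untreated KO1, 965 without XAV KO1) and 1348 to 2168 lower, the lone sample being assumed to vary like the other groups. With a replicate block for the cell line, 1766 were higher and 1641 lower, and the block moved no count by over 1.5 times. In alternatives chosen after seeing the data, the best summit alone gave 3942 gained and 3357 lost, and peaks within 100 bp of a region gave 2362 higher and 2059 lower. Under the latter the difference at Rsl1d1 turned to −0.18 and that of a chromosome 1 region without a gene within 100 kb (−3.10 as reported) to 0.32. The cause of the other shifts was not tested. Differences of named regions kept their side of the threshold in 2739 of the results, were weaker in 430 and stronger in 80. The 2739 include regions never past it, and only the 123 regions past it could become weaker. Of these 123, 60 stayed past it with only the 4 libraries compared, 85 without normalization and 88 with the line as a block. List counts stayed within 1.5 times in 63 results and moved further in 17. Shares of regions stayed within the binomial interval of the reported share in 42 results and moved outside it in 58. The untreated KO15 list, with the weakest limit, and the 2 lines per group limit these results.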

Other observations

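Gene lists of the mouse gastrulation atlas, taken from the study's supplement, gave a wider view, with the reservation that the study picked them for its own use. NMP genes (neuromesodermal progenitors) had 19 gained and 37 lost of 653 regions, and ExE mesoderm genes 23 gained and 43 lost of 820. Endoderm genes had 23 gained and 41 lost of 682, and Mesoderm genes 13 gained and 26 lost of 499. Ectoderm genes had 19 gained and 12 lost of 334, and Angioblast genes 24 gained and 10 lost of 522. Epiblast genes had 26 gained and 20 lost of 456, and Primitive Streak genes 11 gained and 20 lost of 239. PGC genes had 17 gained and 24 lost of 506, Non-neural ectoderm genes 13 and 17 of 384, Visceral endoderm genes 70 and 72 of 1996, and ExE ectoderm genes 50 and 50 of 1265. Over all genes 4.37% of regions were gained and 3.74% lost. By limma, 14 regions of NMP genes were higher and 26 lower, 8 and 35 of ExE mesoderm genes, and 5 and 24 of Mesoderm genes. Of the 72231 regions of all genes, 1749 were higher and 1594 lower. For Angioblast genes limma called 8 higher and 10 lower, the opposite lean from the overlap counts.

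Naive pluripotency genes had 4 gained and 5 lost of 122 regions, with 3 higher and 7 lower by limma. Formative genes had 6 gained and 8 lost of 133, with 1 higher and 5 lower. At Tcl1, an AKT co-activator gene of naive cells, 1 region had no peak with XAV, against 9.46 and 6.30 untreated (−2.58, limma adjusted p = 0.0019), and it was open in no other library. Neural crest and surface ectoderm genes had 9 gained and 10 lost of 166 regions. Among them Pax7, a paired box gene of the neural crest, lost a region 79.1 kb downstream with no peak with XAV against 6.33 and 5.75 (−2.22 ± 0.12, adjusted p = 3.5e-06). Grhl2, a grainyhead factor of surface ectoderm, had 3 gained and 2 lost regions, and a region 5.7 kb downstream that was open throughout held 13.23 and 12.38 with XAV, against 6.85 and 5.06 (0.89, adjusted p = 0.0018).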
